A study of Rattus norvegicus with 8 samples.

Results

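The genes described here are 5 genes of endoplasmic reticulum (ER) stress and EIF2 signaling in rat enteric glial cells. They were chosen by name and Ensembl identifier: Hspa5 (ENSRNOG00000018294), Hsp90b1 (ENSRNOG00000026963), Calr (ENSRNOG00000003029), Atf4 (ENSRNOG00000017801) and Ddit3 (ENSRNOG00000006789). All 5 identifiers were present among the 9848 genes listed, none was absent, and all 5 were among the 7875 genes tested. The names are those given with the identifiers, since a RefSeq table of 47357 rat genes used here paired 0 of the listed identifiers with a symbol. Each group held 2 libraries of the cell line EGC/PK060399egfr, a single rat enteric glial line. Control cells were untreated, and LPS cells received 1 µg/mL of lipopolysaccharide from E. coli, a bacterial cell wall component that sets off inflammatory signaling. THC + LPS cells were given 0.1 µg/mL of THC for 1 h before the same LPS, and THC-COOH + LPS cells were given 10 nM of its metabolite THC-COOH, also for 1 h before LPS. THC is the main psychoactive cannabinoid of Cannabis. The labels give 24 h of LPS, and the results text of the study gives a shorter time. The cannabinoids were dissolved in ethanol, and the sources used here do not give whether Control and LPS cells received ethanol.

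The ER folds secreted and membrane proteins, and unfolded protein there sets off the unfolded protein response. In one branch the kinase PERK phosphorylates the translation factor EIF2, which slows protein synthesis in general while translation of the transcription factor ATF4 rises, and ATF4 in turn can raise Ddit3, which encodes the pro-apoptotic factor CHOP. In the other branches the factors ATF6 and XBP1 raise the ER chaperones, among them Hspa5 (BiP, also GRP78), Hsp90b1 (GRP94) and Calr (calreticulin). EIF2 phosphorylation and ATF4 translation are not read by RNA counts, so the values below bear only on the mRNA of these genes. From pathway analysis of its differentially expressed genes (DEG), the study reported EIF2 signaling among the main pathways affected by LPS and by THC. The genes it named in this pathway for THC, among them ribosomal protein genes, are not among the 5. The mRNA levels of the 5 genes are given beside that claim and do not test it.

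The promoters of the 3 chaperone genes are shown for the ER stress response element. The element was searched because it is known from ER chaperone genes, so its presence in these 3 is not an independent finding. The sequences are the 250 bases before the annotated gene start in RefSeq (build GRCr8), on the strand of the gene, 5′ to 3′. Capitals mark the fixed bases of the ER stress response element, which is CCAAT, then 9 bases of any kind, then CCACG. Both strands were searched, and a match on the opposite strand reads CGTGG, then 9 bases, then ATTGG.
Hspa5 (GRCr8 chr3:38452766-38453015, plus strand): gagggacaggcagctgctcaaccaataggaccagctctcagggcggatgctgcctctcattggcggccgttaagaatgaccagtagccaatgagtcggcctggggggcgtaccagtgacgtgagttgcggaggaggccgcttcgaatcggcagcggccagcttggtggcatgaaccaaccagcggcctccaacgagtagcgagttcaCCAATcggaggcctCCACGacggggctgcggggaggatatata
Hsp90b1 (GRCr8 chr7:23012294-23012543, minus strand): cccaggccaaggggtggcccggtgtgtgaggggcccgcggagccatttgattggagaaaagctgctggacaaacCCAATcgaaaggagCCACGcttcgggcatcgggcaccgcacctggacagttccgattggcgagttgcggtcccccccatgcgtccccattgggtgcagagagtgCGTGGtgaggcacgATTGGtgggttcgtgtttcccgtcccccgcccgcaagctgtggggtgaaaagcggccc
Calr (GRCr8 chr19:40213117-40213366, plus strand): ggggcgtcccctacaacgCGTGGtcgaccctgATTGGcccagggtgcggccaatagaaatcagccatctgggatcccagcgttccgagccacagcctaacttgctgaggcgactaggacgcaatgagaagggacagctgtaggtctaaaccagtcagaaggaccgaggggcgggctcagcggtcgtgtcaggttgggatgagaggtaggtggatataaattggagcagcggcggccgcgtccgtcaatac
Counting the base before the gene start as −1, the match in Hspa5 spanned −43 to −25 on the strand of the gene. Hsp90b1 held 2 matches, at −176 to −158 on the strand of the gene and at −72 to −54 on the opposite strand. Calr held 1 match on the opposite strand, at −232 to −214. In windows of 250 bases before and 50 after the start, 22 of 33469 promoters (0.0657%) held the full element, whereas CCACG, which the element contains, was in 31.6% and CCAAT, which it also contains, in 37.5%. Only exact matches were counted, and the windows of Atf4 (chromosome 7) and Ddit3 (chromosome 7) held no exact full element. The Ddit3 window did hold a near match on the opposite strand, CGTGC, then 9 bases, then ATTGG at −76 to −72, with 1 base changed. How many promoters hold such near matches was not counted. The C/EBP-ATF element TGATGNAAN, which was in 3.97% of all windows on either strand, was in none of the 5. These matches describe the letters of the window and are not measured binding. Bases further upstream were not searched, so an element there would be missed.

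Sequencing was by bulk MARS-seq, a method that counts 3′ ends of polyadenylated transcripts, and the deposited counts summed to between 545779 and 1559935 per library. Between 0.313% and 0.354% of them fell on the 5 genes. Levels are given as CPM, the count of a gene relative to the size of its library after TMM scaling. Tests are from 1 edgeR quasi-likelihood model of all 8 libraries. A gene was called a DEG at a Benjamini-Hochberg adjusted p under 0.05 over all 7875 genes and a fold change above 1.6. Separate cultures are not stated for the 2 libraries of a group, so the p-values measure only the spread between these libraries, which may be technical. With 2 libraries against 2, the smallest two-sided p of an exact permutation test is 0.333. Glial and other cell type markers were not looked up, since identifiers were not paired with symbols, so the labelled cell type was not checked here.

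Among the ER chaperones, Hspa5, the main ATP-driven chaperone of the ER lumen and a sensor partner of the unfolded protein response, was nearly level across the groups. Its level was 475 and 436 CPM in Control, 473 and 506 in LPS, 451 and 458 in THC + LPS, and 441 and 467 in THC-COOH + LPS. The Control and LPS libraries overlapped, and both pretreated groups lay below both LPS libraries. Over all 8 libraries the highest level was 1.16 times the lowest, from raw counts of 273 to 704. Group means ran from 454 ± 18.2 CPM in THC-COOH + LPS to 490 ± 23.8 in LPS (SD, n = 2 libraries each). The log2 fold change of LPS over Control was 0.10 (standard error 0.11, adjusted p = 0.913 from edgeR). Without Control library 2 this was 0.037, and without Control library 1 it was 0.16.

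Hsp90b1, the ER member of the HSP90 chaperone family, had 839 and 623 CPM in Control and 826 and 861 in LPS. With pretreatment it had 745 and 728 CPM in THC + LPS and 762 and 741 in THC-COOH + LPS. The 2 Control libraries thus spanned all of the pretreated libraries, while LPS was above both pretreated groups. The ratio of Control library 1 to Control library 2 was 1.34, with a 95% interval from counting error (exact binomial) of 1.19 to 1.52. Of the 20 pairs of replicate libraries over the 5 genes this was the only one whose interval excluded equality. Intervals of this kind cover counting error only. The log2 fold change of LPS over Control, 0.21 (standard error 0.11, adjusted p = 0.713 from edgeR), was 0.44 without Control library 1 and 0.0036 without Control library 2, and it was not called in either case.

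Calr, a calcium-binding chaperone of glycoproteins, was the best counted of the 5 genes, with 933 to 2372 raw counts per library. It had 1559 and 1656 CPM in Control, 1713 and 1731 in LPS, 1519 and 1567 in THC + LPS, and 1454 and 1522 in THC-COOH + LPS. Both LPS libraries were above all other libraries, and the 2 pretreated groups overlapped each other. The group means were 1608 ± 68.7, 1722 ± 12.9, 1543 ± 33.8 and 1488 ± 48.2 CPM in the same order (SD, n = 2 libraries each). Relative to LPS alone, the log2 fold change was −0.21 with THC-COOH (standard error 0.071, unadjusted p = 0.00685, adjusted p = 0.550 from edgeR) and −0.16 with THC (standard error 0.071, unadjusted p = 0.0351, adjusted p = 0.783 from edgeR). Neither passed the threshold, and the LPS libraries are common to these comparisons.

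Of the transcription factors, Atf4 encodes the effector that is translated when EIF2 is phosphorylated. It had 400 and 413 CPM in Control, 447 and 445 in LPS, 464 and 502 in THC + LPS, and 467 and 476 in THC-COOH + LPS. Control was below every LPS-exposed library, LPS alone was below both pretreated groups, and the 2 pretreated groups overlapped. The group means were 406 ± 9.37, 446 ± 0.966, 483 ± 27.4 and 471 ± 6.35 CPM (SD, n = 2 libraries each), and with 240 to 724 raw counts the SD of LPS is smaller than the counting error. Relative to Control, the log2 fold change was 0.13 with LPS (adjusted p = 0.877 from edgeR), 0.24 with THC + LPS (unadjusted p = 0.0287, adjusted p = 0.884) and 0.21 with THC-COOH + LPS (unadjusted p = 0.0540, adjusted p = 0.597). None of these was called. For the mean of the 3 LPS-exposed groups over Control it was 0.20 (standard error 0.087, unadjusted p = 0.0342, adjusted p = 0.702 from edgeR). By DESeq2 the unadjusted p of this mean change was 0.077. All 6 exposed libraries were above both Control libraries, an arrangement found in 4.69% of all genes tested (8.72% with either direction). These 6 libraries are 3 treatments and not 6 replicates of 1. An exact two-sided permutation test over them gave p = 0.0714, the smallest that 6 libraries against 2 allow. That p follows from the arrangement and adds nothing to it.

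Ddit3, which encodes CHOP, was counted least, with 19 to 50 raw counts per library. It had 47.0 and 36.4 CPM in Control, 39.8 and 40.8 in LPS, 32.0 and 26.3 in THC + LPS, and 49.1 and 42.8 in THC-COOH + LPS. Both THC + LPS libraries were below all other libraries, the LPS libraries lay within the range of Control, and THC-COOH + LPS was above LPS but overlapped Control. The group means were 41.7 ± 7.49, 40.3 ± 0.735, 29.2 ± 4.05 and 46.0 ± 4.51 CPM (SD, n = 2 libraries each), and the SD of LPS understates the counting error of 35 and 22 raw counts. The log2 fold change of THC + LPS was −0.42 relative to LPS (standard error 0.28, adjusted p = 0.859 from edgeR) and −0.47 relative to Control (standard error 0.27, adjusted p = 0.922 from edgeR). For the change relative to LPS, a separate standard error computed from the raw counts alone was 0.26, beside the 0.28 of the model. The change relative to Control was −0.28 without Control library 1, and neither change reached the fold that a call requires.

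**Figure D1:**
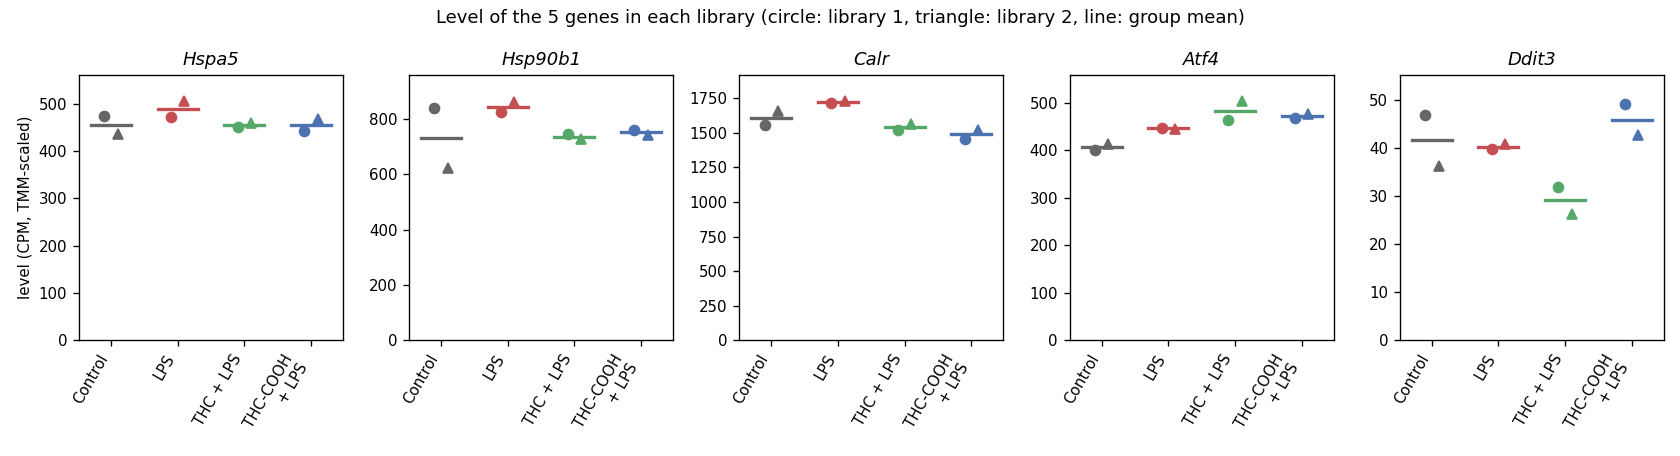
Level of each of the 5 genes (CPM on TMM-scaled library sizes, axis from 0) in the 4 groups. Circles are library 1, triangles library 2 and lines group means. The highest library is 1.16 times the lowest for Hspa5 and 1.87 times for Ddit3. The libraries of a group lie furthest apart, relative to their mean, for Hsp90b1 in Control (839 and 623 CPM) and Ddit3 in Control (47.0 and 36.4 CPM). Ddit3 is lowest in THC + LPS (32.0 and 26.3 CPM).

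The first comparison asked what LPS alone did to these genes. In LPS against Control, 0 of the 5 genes were called by edgeR, where 0.0381% of all genes tested were called, and 0 had an unadjusted p under 0.05, against 7.16% of all genes. DESeq2 and limma voom also called 0 of the 5. The chaperones and Atf4 were higher and Ddit3 was lower in LPS, and the groups did not overlap for Calr and Atf4, 2 of the 5 genes, against 35.9% of all genes. The median absolute log2 fold change was 0.10 over the 5 genes and 0.20 over all genes tested. Of the 5 genes, 4 had a mean count above that of at least 95.4% of all genes tested, and Ddit3 above that of 48.7%. Among the 3131 genes with a mean of at least 50 counts the median was 0.13. The largest change was that of Hsp90b1, whose 95% interval of the log2 fold change ran from −0.017 to 0.43.

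The second question was whether THC before LPS altered the LPS level. In THC + LPS against LPS, 0 of the 5 genes were called by edgeR, DESeq2 or limma voom, where edgeR called 0.0254% of all genes. By edgeR 1 of them, Calr, had an unadjusted p under 0.05, against 6.16% of all genes. The 3 chaperones and Ddit3 were lower and Atf4 was higher with THC, and for all 5 genes the groups did not overlap, which held for 36.5% of all genes. For the chaperones the log2 fold changes were −0.10 for Hspa5, −0.19 for Hsp90b1 and −0.16 for Calr. An arrangement with both THC libraries below both LPS libraries was found in 18.7% of all genes tested. The median absolute log2 fold change was 0.16 over the 5 genes, 0.19 over all genes tested and 0.12 over the well counted genes.

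THC-COOH before LPS was compared with LPS alone in the same way. Here 0 of the 5 genes were called by edgeR, DESeq2 or limma voom, where edgeR called 0% of all genes (528 of 7875 had an unadjusted p under 0.05, and the other tools also called 0). Calr was the 1 gene of the 5 with an unadjusted p under 0.05 by edgeR, against 6.70% of all genes. The 3 chaperones were lower, and Atf4 and Ddit3 were higher, and for all 5 genes the groups again did not overlap, against 36.3% of all genes. Both pretreated libraries were below both LPS libraries in 18.0% of all genes. The log2 fold changes were −0.11 for Hspa5, −0.17 for Hsp90b1, 0.080 for Atf4 and 0.20 for Ddit3. Without LPS library 2 the value of Hspa5 was −0.062 with either pretreatment. The lower chaperone levels under either pretreatment rest on the same LPS libraries. Relative to Control, the log2 fold changes of the chaperones with THC + LPS were −0.0044, 0.012 and −0.060, and with THC-COOH + LPS they were −0.0049, 0.041 and −0.11, in the order Hspa5, Hsp90b1 and Calr, with 0 called by edgeR, DESeq2 or limma voom. Against Control, edgeR called 0.0508% of all genes for THC + LPS and 0.0762% for THC-COOH + LPS, and an unadjusted p under 0.05 was reached by 1 of the 5 genes, Atf4, with THC (5.33% of all genes) and by 0 with THC-COOH (8.43%). The groups did not overlap for 2 of the 5 in each case, Atf4 and Ddit3 with THC (34.7% of all genes) and Calr and Atf4 with THC-COOH (38.2%).

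**Figure D2:**
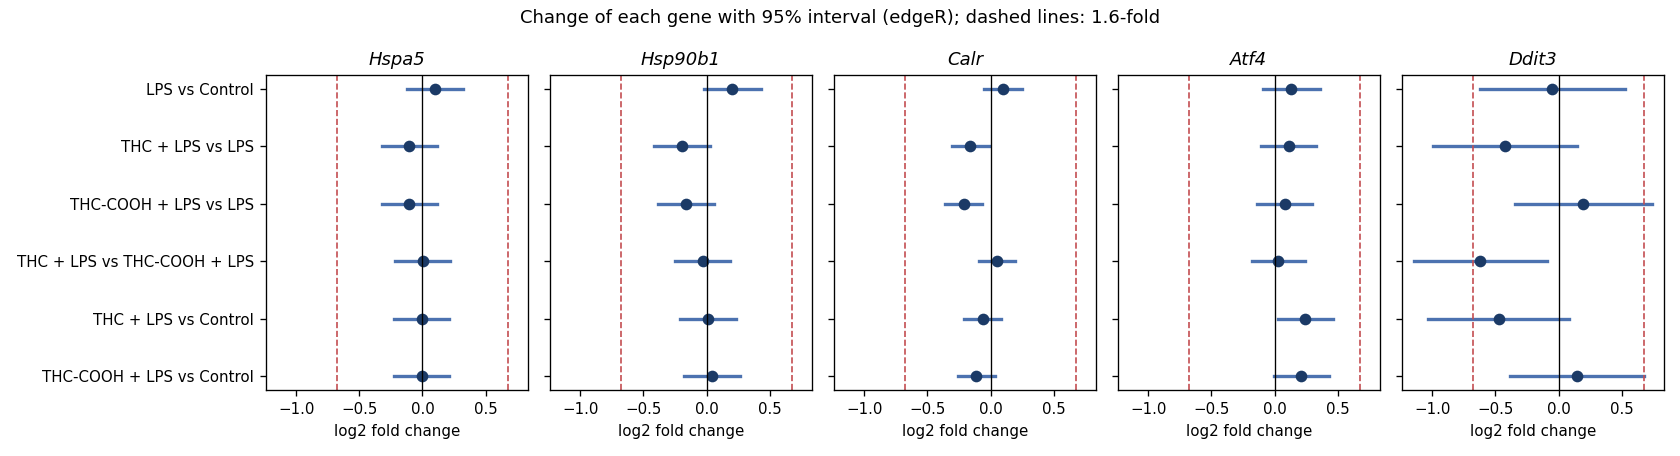
Log2 fold change of each gene (points) with its 95% interval from edgeR (bars) in 6 comparisons, with dashed lines at a fold of 1.6 in either direction. All bars of Hspa5, Hsp90b1, Calr and Atf4 lie between the dashed lines, and 4 of the 6 bars of Ddit3 cross one.

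The pretreatments were also set against each other. THC-COOH differs from THC by a carboxyl where THC has a methyl, and it was given at an unmatched dose (10 nM, against 0.1 µg/mL of THC). For Hspa5 the log2 difference of THC + LPS from THC-COOH + LPS was 0.00049 (95% interval −0.21 to 0.21), and for Hsp90b1, Calr and Atf4 it was −0.028, 0.052 and 0.031. Ddit3 differed most, at −0.62 (standard error 0.26, 95% interval −1.15 to −0.093, unadjusted p = 0.0221, adjusted p = 0.472 from edgeR). Its groups did not overlap, which held for 39.5% of all genes. The difference was thus not called, and 0 of the 5 genes were called by edgeR, DESeq2 or limma voom, where edgeR called 0.229% of all genes and 8.81% had an unadjusted p under 0.05. By DESeq2 the unadjusted p of Ddit3 was 0.116.

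The 95% intervals give the changes that the model allowed for each gene, and the size of change that a call could detect was not tested. Over the 6 pairwise comparisons, the 95% intervals of Hspa5, Hsp90b1, Calr and Atf4 excluded a 1.6-fold change in either direction in 24 of 24 cases, and the widest reached a fold of 1.38. Their standard errors were between 0.071 and 0.11 on the log2 scale. These intervals rest on the spread between these libraries, which may be technical. For Hsp90b1 in LPS against Control, the log2 fold change without Control library 1 (0.435) lay above the upper bound of 0.429. For Ddit3, with edgeR standard errors between 0.26 and 0.28, the edgeR interval excluded a 1.6-fold change in 2 of 6 cases. These were LPS against Control and THC-COOH + LPS against Control, where the upper bound of the second lay at the threshold. For these 2 changes, of nearly the same size by DESeq2, the unadjusted p was 0.913 and 0.718 by DESeq2, against 0.860 and 0.572 by edgeR. DESeq2 thus gave Ddit3 a larger error. Its intervals were not computed, so the 2 exclusions are shown for edgeR only. Against LPS the edgeR interval of Ddit3 reached a fold of 0.502 with THC and 1.67 with THC-COOH. In the test of any difference among the 4 groups, 0 of the 5 genes passed an adjusted p under 0.05 by edgeR, DESeq2 or limma voom, where edgeR passed 0.470% of all genes. The smallest unadjusted p by edgeR was that of Calr, 0.0397 (adjusted p = 0.600), and 8.04% of all genes had one under 0.05. In the mean of the LPS-exposed groups against Control, 0 of the 5 were called by the same 3 tools, where edgeR called 0.0635% of all genes, and 1 of them, Atf4, had an unadjusted p under 0.05 by edgeR, against 6.65% of all genes.

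**Figure D3:**
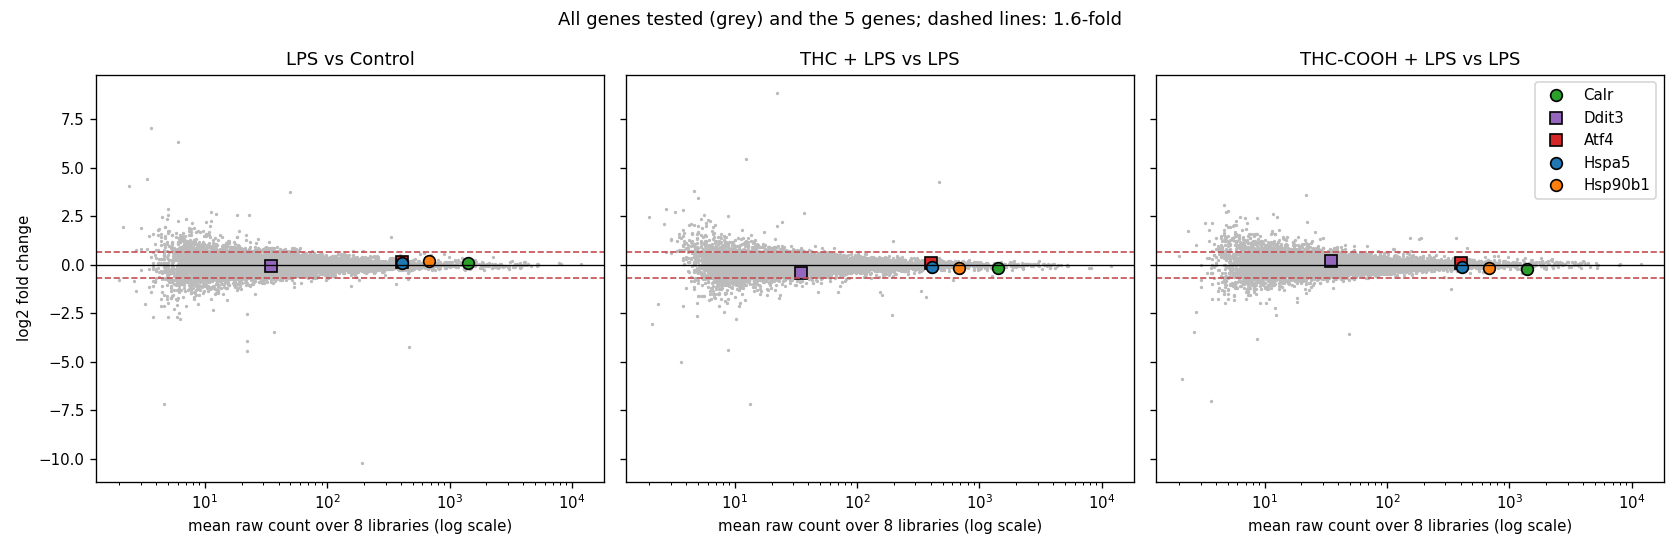
Log2 fold change against mean raw count over the 8 libraries (log scale) for the 7875 genes tested (grey) and the 5 genes (circles, chaperones; squares, transcription factors), in 3 comparisons, with dashed lines at a fold of 1.6. The 4 genes other than Ddit3 lie where the grey cloud is narrow, and all 5 lie between the dashed lines.

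The 5 genes were also set against each other within a library, which needs no scaling of library sizes. Per 100 counts of Atf4 there were 11.7 and 8.81 counts of Ddit3 in Control, 8.91 and 9.17 in LPS, 6.91 and 5.23 in THC + LPS, and 10.5 and 8.99 in THC-COOH + LPS. The 2 THC + LPS libraries were the lowest of the 8, and the other groups overlapped. The exact 95% counting interval of THC + LPS library 2 ran from 3.12 to 8.29. That of Control library 2 ran from 5.76 to 13.0 and that of Control library 1 from 8.03 to 16.7. These intervals overlapped that of THC + LPS library 2, for Control library 1 only at its lower end. Whether single libraries differed by more than counting error was not tested. This ratio was chosen after the values were seen and is given without a test. For the chaperones, there were 143 counts of Hsp90b1 per 100 of Hspa5 in Control library 2 and between 159 and 177 in the other 7 libraries.

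**Figure D4:**
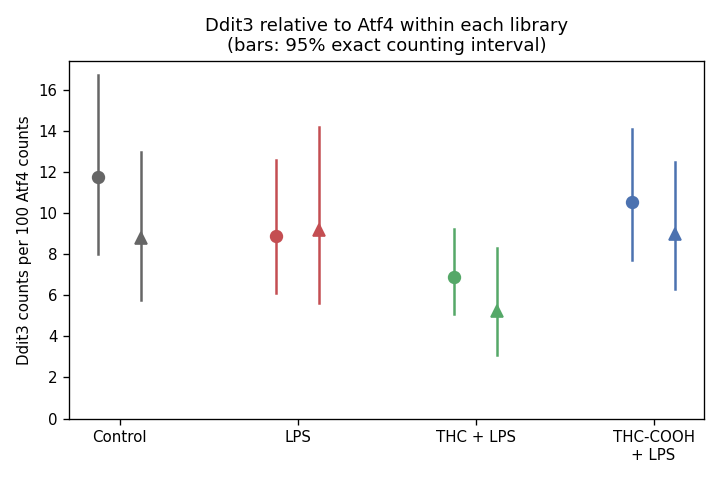
Counts of Ddit3 per 100 counts of Atf4 in each library (circle, library 1; triangle, library 2; axis from 0), with the exact 95% counting interval as a bar. The THC + LPS libraries, at 6.91 and 5.23, are the lowest, and their bars overlap those of other groups.

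Across the 8 libraries the levels of Hspa5 and Hsp90b1, as log2(CPM + 1), had a Pearson correlation of 0.811 (Spearman's rho 0.786), the highest of the 10 pairs. Hspa5 and Calr had 0.558 and Hsp90b1 and Calr 0.207. The correlation of Atf4 with Ddit3 was −0.484, and Atf4 had correlations between −0.349 and −0.0612 with the chaperones. These are descriptions over 8 libraries in 4 groups that were scaled together, and their ranges are small. The genes most like Hspa5, among 3130 others with a mean of at least 50 counts, were ENSRNOG00000016031 (r = 0.956) and ENSRNOG00000012199 (r = 0.946). Those most like Ddit3, among 3131, were ENSRNOG00000009329 (r = 0.980) and ENSRNOG00000019582 (r = 0.933). A highest r among so many genes over 8 libraries is a description only.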

How the data were processed

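MARS-seq libraries of polyadenylated RNA, 8 in all, were grouped by the labels, with 2 per group. A further compound named in the labels was not analysed here. Per the submitters' processing notes, reads went through bcl2fastq 2.20.0.422, cutadapt, STAR 2.7.3a and then HTSeq against Rnor_6.0. The annotation release is not given in the sources used here, nor is the handling of molecular identifiers. The authors deposited raw counts per Ensembl gene, which were used. They also deposited a signal, those counts over a DESeq2 size factor of 0.638 to 1.84 for each library, which was used only to check this. The 7875 of 9848 genes whose highest raw count exceeded 10 were fitted by quasi-likelihood in edgeR 4.0.16 (R 4.3.3) with TMM factors from 0.986 to 1.02 and a coefficient for each group, which left 4 residual degrees of freedom. Standard errors came from the fitted model, and 95% intervals used 23.7 degrees of freedom. The filter, the adjusted p and the fold of 1.6 follow the study's methods. The study's results text gives its p threshold without naming an adjustment. It reports more DEG than edgeR or DESeq2 called here for LPS against Control and for either pretreatment against LPS. Alternatives were DESeq2 1.42.0, limma voom (limma 3.58.1), other size factors and filters, fewer libraries, other thresholds and a replicate block. All 5 genes are named by rule, with the 2 genes of highest Pearson r to Hspa5 and to Ddit3. Members and lists were chosen with earlier results of these data known. Lists of further pathway genes and of cell type markers need symbols and were not used here. Replicate libraries differed by more than sampling noise (chi-square per degree of freedom 1.66 to 2.05). Plots were made in matplotlib 3.10.9 under Python 3.11.15.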

Additional observations from a re-analysis of the deposited data

Results flagged for a closer look

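For Ddit3, both THC + LPS libraries were below both LPS libraries and both THC-COOH + LPS libraries were above them, so the pretreatments lay on opposite sides of LPS alone, and this result is given for that contrast. This arrangement was found in 2.92% of all genes tested, and in 1 of the 5 genes. Relative to LPS alone, the log2 fold change was −0.42 with THC (standard error 0.28, unadjusted p = 0.136 from edgeR) and 0.20 with THC-COOH (standard error 0.26, unadjusted p = 0.462 from edgeR), and the second was 0.088 without THC-COOH + LPS library 1. Both rest on the same pair of LPS libraries. The direct difference between the pretreatments was −0.62 on the log2 scale (standard error 0.26). It had an unadjusted p of 0.0221 and an adjusted p of 0.472 from edgeR, so it failed the correction. The difference ran from −0.80 to −0.51 and its adjusted p from 0.413 to 1 over 15 alternatives. The doses were not matched, and Ddit3 had 50 and 19 raw counts in THC + LPS against 50 and 39 in THC-COOH + LPS.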

How the results depend on the processing

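Of the 5 genes, 0 were called in each of the 8 tests under every alternative with an adjusted p, and the smallest adjusted p of a gene was 0.277 (Hsp90b1, LPS against Control, without Control library 1). With an unadjusted p and no minimum fold, which makes no correction, the count was 1 for either pretreatment relative to LPS, for the pretreatments against each other, for THC + LPS and for all LPS-exposed groups relative to Control, and for the test over 4 groups. Of 520 recomputed log2 fold changes 24 had the opposite sign, each from values of at most 0.15 in size. For Hspa5, THC + LPS vs THC-COOH + LPS was −3.6e-06 with limma voom and −0.0013 with the libraries compared alone, and THC + LPS vs Control was 0.0015 with filterByExpr and 0.0042 when no gene with counts was filtered out.

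With each library left out, values that changed sign ran, for Hspa5, from −0.040 to 0.041 between the pretreatments and, relative to Control, from −0.069 to 0.057 with THC + LPS, from −0.067 to 0.059 with THC-COOH + LPS and from −0.033 to 0.093 with all LPS-exposed groups. For Hsp90b1 they ran from −0.19 to 0.24, from −0.16 to 0.27 and from −0.12 to 0.32 in the last 3 of these, the lowest without Control library 2 and the highest without Control library 1. For Atf4, the difference between the pretreatments ran from −0.024 to 0.10. For Calr, all LPS-exposed vs Control ran from −0.066 to 0.017. For Ddit3 they ran from −0.23 to 0.15 for LPS vs Control, from −0.029 to 0.34 for THC-COOH + LPS vs Control and from −0.30 to 0.069 for all LPS-exposed vs Control. A further 12 changes, none of them called, kept their sign and moved by over 1.5 times. Those of Hspa5, of Hsp90b1 with LPS and of Ddit3 are given beside their results. The others were, for Calr relative to Control, LPS (0.057 without Control library 1), THC + LPS (−0.10 to −0.020) and THC-COOH + LPS (−0.069 without Control library 2), and for Atf4 relative to LPS, THC (0.054 to 0.17). Between the pretreatments they were Hsp90b1 (−0.049 to −0.0083) and Calr (0.019 to 0.085). The cause was not tested.

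Under the replicate block, 0 of the 5 genes were called in each test. Pairing by replicate is not stated, and noisy differences of libraries 1 and 2, correlated at −0.0213 to 0.0412 between groups, cannot decide it. Over all genes edgeR called, relative to Control, 3 with LPS (1 to 11 over the alternatives that keep the thresholds), 4 with THC + LPS (0 to 15), 6 with THC-COOH + LPS (1 to 14) and 5 with all LPS-exposed groups (1 to 10). Relative to LPS it called 2 with THC (1 to 18) and 0 with THC-COOH (0 to 9). Between the pretreatments it called 18 (1 to 30, lowest without THC + LPS library 1), and over 4 groups 37 (10 to 69). In the same order the block gave 8, 15, 13, 8, 18, 8, 30 and 64. The compared libraries alone were not fitted for tests that need all 8.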
